A study of Homo sapiens with 6 samples.

Results

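The subunits of the SWI/SNF chromatin remodelling complex were followed in A549 cells, a human lung adenocarcinoma line with epithelial features that carries a mutated SMARCA4 gene. The 10 genes were chosen by symbol: SMARCA4, SMARCA2, SMARCB1, SMARCC1, SMARCC2, SMARCE1, SMARCD1, SMARCD2, SMARCD3 and ARID1A. All 10 were found among the 29845 genes of the deposited read table and of the FPKM table (reads scaled for both the size of the library and the length of the transcript, so that levels can be set side by side between genes). All 10 also passed the filter on low counts that left 16555 genes for testing. The polyadenylated RNA of 6 libraries was sequenced, 3 from cells given the empty control plasmid and 3 from cells given a plasmid for overexpression of TFAM, the mitochondrial transcription factor A. The plasmid was delivered by lipid transfection. The study's text gives no share of transfected cells and no sorting, so each library may hold RNA of transfected and untransfected cells together. The p-values measure the spread between the libraries. The study's text calls the replicates biological, while the labels only number them and do not say whether they came from separate cultures.

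SWI/SNF complexes slide and evict nucleosomes with the energy of ATP and so open promoters and enhancers to transcription factors. Each complex carries a single ATPase, either SMARCA4 (BRG1) or SMARCA2 (BRM). It is built on SMARCC1, SMARCC2 or both, and a member of the SMARCD family, joined by SMARCB1 and SMARCE1 in the BAF and PBAF forms. The canonical BAF form is marked by ARID1A or ARID1B, the PBAF form by ARID2 and PBRM1, and the non-canonical form, which lacks SMARCB1 and SMARCE1, by BRD9, and subunits of the complex are mutated in many cancers, lung cancer among them.

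The libraries held between 26650854 and 37321956 reads in genes, and the members were counted at between 199 and 4097 reads per library. Reads without molecular identifiers are not independent molecules, so this depth bears on counting error only. TFAM itself had 12.36, 10.99 and 11.2 FPKM in control replicates 1 to 3 and 10.64, 11.88 and 13.63 FPKM in replicates 1 to 3 labelled TFAM-OE. Its log2 fold change was 0.08 (SE 0.096, 95% interval -0.13 to 0.30, adjusted p = 0.623). The targeted mRNA thus did not pass the test, and the groups are called control and labelled TFAM-OE here. The study reported TFAM overexpression at the protein level, from a western blot for the FLAG tag carried by the plasmid. Every difference given here is labelled TFAM-OE against control. Of the epithelial markers, the keratins KRT8, KRT18 and KRT19 were abundant at 3753 to 66703 reads per library, whereas EPCAM (9 to 32 reads) and CDH1 (117 to 249 reads) were low. Genes of other lung cells were at or near 0, with 0 to 1 reads for PTPRC and DCN, 0 to 6 for SFTPC and 1 to 4 for PECAM1, while COL1A1 had 83 to 173 reads.

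A single member passed the test: the mRNA of the ATPase SMARCA4 fell 2.18-fold. In the higher direction none of the 10 passed with edgeR, 1 (SMARCC2) had an unadjusted p below 0.05, and DESeq2 called 1 and limma-voom 0. The edgeR calls are read against the background of all tested genes, of which 8.29% were called (edgeR quasi-likelihood test, Benjamini-Hochberg adjusted p below 0.05), 3.48% higher and 4.81% lower. Over all tested genes DESeq2 called 932 higher and limma-voom 565. The share of genes with an unadjusted p below 0.05 is not given here. The other 9 members lay within 0.5 of 0 on the log2 scale. The median log2 fold change of the members was 0.11 and that of all tested genes was -0.0084. Between the groups, the scaled CPM (reads scaled to library size after TMM normalization, the scale that the test uses) did not overlap for 3 members, 1 higher and 2 lower. In the background 31.7% of genes did not overlap, 15.8% higher and 15.8% lower, so the members' count was near it.

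**Figure D1:**
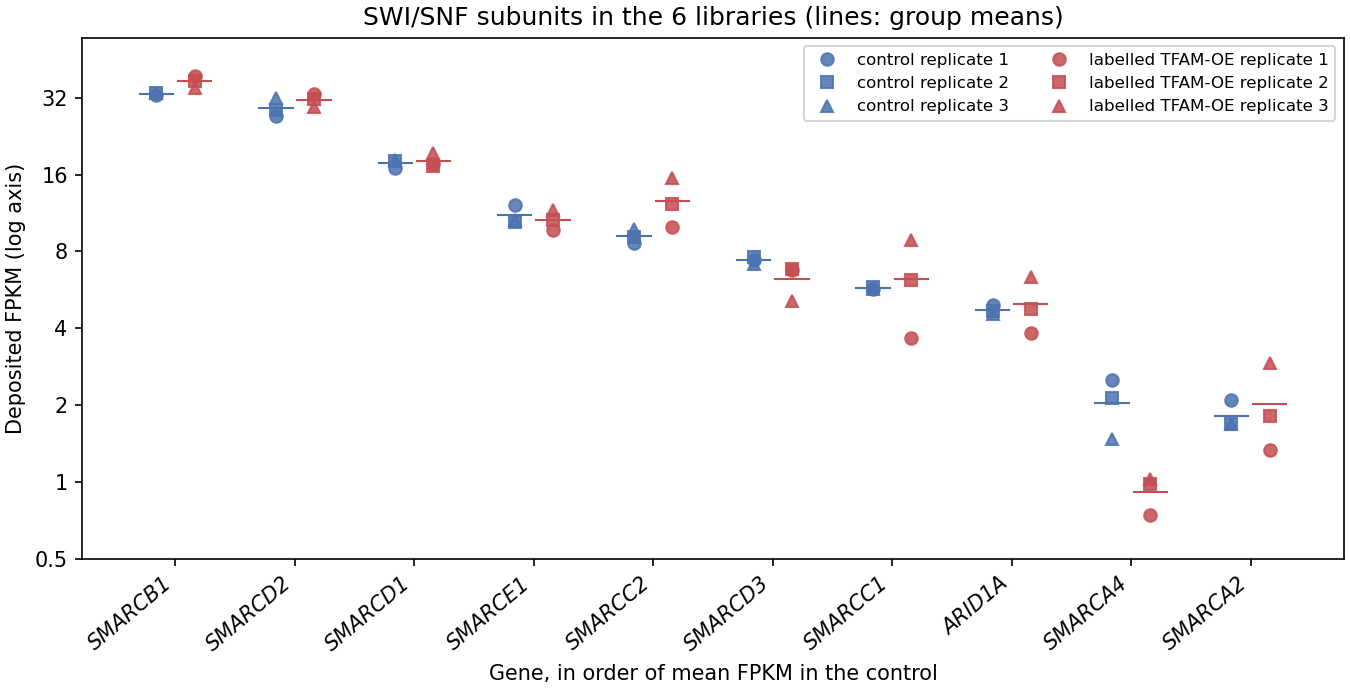
Deposited FPKM (vertical axis, log scale) of the 10 SWI/SNF members in the 6 libraries, with control in blue, libraries labelled TFAM-OE in red, a marker shape for each replicate number and a line at each group mean. The SMARCA4 points of the groups are apart (1.47 to 2.5 against 0.74 to 1.03 FPKM), and the red points of SMARCC1, SMARCA2 and ARID1A are spread widely around the control mean.

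In the control the core and SMARCD subunits were the most abundant members and the ATPases the least. The mean FPKM fell in the order SMARCB1 (33.1), SMARCD2 (29.2), SMARCD1 (17.8), SMARCE1 (11.1), SMARCC2 (9.20), SMARCD3 (7.39), SMARCC1 (5.73), ARID1A (4.72), SMARCA4 (2.03) and SMARCA2 (1.82). The ranges of neighbours in this order did not overlap in the 3 control libraries except for SMARCA4 and SMARCA2. The first place of SMARCB1 depends on the length behind its FPKM. Reads and FPKM together give a length of 1673 nt for this gene, 0.322 times the 5191 nt of its annotated transcript, while the ratio lay between 0.852 and 1.44 for the other members. With the scaled CPM divided by the annotated transcript length, SMARCB1 was at 13.1 CPM per kilobase and took place 4, below SMARCD2 (40.6), SMARCD1 (23.6) and SMARCE1 (19.7). The ATPases were the lowest on that scale too, at 2.89 for SMARCA4 and 2.56 for SMARCA2.

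In the libraries labelled TFAM-OE the order differed in a pair of places. SMARCC2 (12.6 FPKM) stood above SMARCE1 (10.7 FPKM), with overlapping ranges, and SMARCA2 (2.03 FPKM) stood above SMARCA4 (0.917 FPKM), with ranges that did not overlap.

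The ATPases are the motor subunits and the place where the members differed most. SMARCA4 (ENSG00000127616.17, chr19:10960932-11079426, + strand, GRCh38) encodes the BRG1 ATPase. It had 648, 456 and 439 reads in control replicates 1, 2 and 3, and 199, 290 and 237 in replicates 1, 2 and 3 labelled TFAM-OE. In FPKM these were 2.5, 2.13 and 1.47 against 0.74, 0.98 and 1.03. Every library labelled TFAM-OE was below every control library, and in FPKM the groups came nearest between control replicate 3 and labelled TFAM-OE replicate 3. The scaled CPM was 16.1 ± 3.75 in the control and 7.37 ± 0.979 in the labelled TFAM-OE libraries (SD, n = 3 each). On the log2 scale SMARCA4 had a fold change of -1.12 (SE 0.19, 95% interval -1.55 to -0.70, adjusted p = 0.0082 by the edgeR quasi-likelihood test over all 16555 genes). SMARCA4 also passed with a 2-fold limit added to the test, as 2.07% of tested genes did in the lower and 0.447% in the higher direction (2.51% in all).

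The control libraries were themselves uneven for SMARCA4. The highest of them was 1.61 times the lowest in scaled CPM, a ratio above that of 95.8% of 13158 genes with a mean of at least 50 reads, whose median ratio was 1.18. The call was lost without either of the higher control libraries. Over all genes, calls in the lower direction also fell, from 796 to 252 without control replicate 1 and to 240 without control replicate 2. Without control replicate 1 the log2 fold change was -0.97 (adjusted p = 0.0516), and without control replicate 2 it was -1.08 (adjusted p = 0.0569), against a range of 1.4e-09 to 0.0569 over 18 alternative fits. The direction held with each library left out, with log2 fold changes between -1.30 and -0.97.

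SMARCA2 (ENSG00000080503.19, chr9:1980290-2193624, + strand), which encodes the alternative ATPase BRM, had 2.09, 1.68 and 1.69 FPKM in the control and 1.33, 1.82 and 2.93 FPKM in the labelled TFAM-OE libraries. The groups overlapped, and the labelled TFAM-OE libraries held both the lowest and the highest value of the 6. SMARCA2 had a log2 fold change of 0.16 (SE 0.22, 95% interval -0.33 to 0.65, adjusted p = 0.694). The sign rested on labelled TFAM-OE replicate 3, without which the value was -0.14.

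The balance of the ATPase mRNAs was compared as the share of SMARCA2 in the summed FPKM of SMARCA4 and SMARCA2. It was 45.5%, 44.1% and 53.5% in the control and 64.3%, 65.0% and 74.0% in the labelled TFAM-OE libraries. All 3 labelled TFAM-OE libraries were above all 3 control libraries, with means of 47.7% ± 5.06 and 67.7% ± 5.42 (SD, n = 3 each). The difference was 20.0 percentage points, with p = 0.1 by the two-sided exact permutation test, the smallest p that 3 against 3 libraries allow, and 0.167 after Benjamini-Hochberg adjustment over the 5 shares compared. The share is built from the SMARCA4 and SMARCA2 values given above, so it is not a result separate from the lower SMARCA4. The summed FPKM of SMARCA4 and SMARCA2 was 4.59, 3.81 and 3.16 in the control and 2.07, 2.8 and 3.96 in the labelled TFAM-OE libraries, and these overlapped. RNA levels of this kind do not tell how much functional protein a mutated SMARCA4 gene gives.

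**Figure D2:**
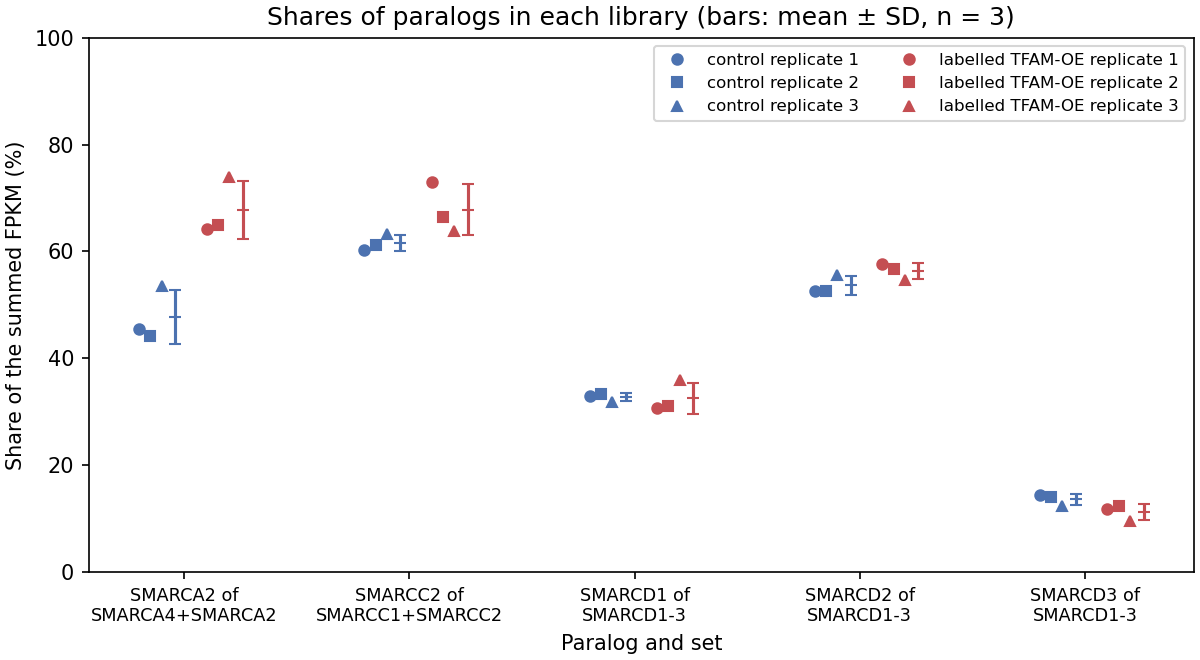
Share of each paralog in the summed FPKM of its set of paralogs (vertical axis, percent), for each library, with bars at the mean ± SD of 3 libraries, control in blue and labelled TFAM-OE in red. The SMARCA2 share is 44.1% to 53.5% in the control and 64.3% to 74.0% in the labelled TFAM-OE libraries, while the SMARCD1 and SMARCD2 shares overlap between the groups.

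Of the 4 core subunits none passed the edgeR test, and SMARCC2 was the only core subunit with an unadjusted p below 0.05 or a call by DESeq2. SMARCC1 and SMARCC2 encode the BAF155 and BAF170 scaffolds, on which the complex is assembled. SMARCC2 (ENSG00000139613.11, chr12:56162359-56189567, - strand) had 8.66, 9.11 and 9.84 FPKM in the control and 9.94, 12.25 and 15.54 FPKM in the labelled TFAM-OE libraries. The groups did not overlap, though labelled TFAM-OE replicate 1 was only just above control replicate 3. In scaled CPM the means were 49.1 ± 4.45 and 67.7 ± 11.6 (SD, n = 3 each). Its log2 fold change of 0.46 (SE 0.13, 95% interval 0.16 to 0.76) was the largest positive value among the members, and its adjusted p was 0.064. SMARCC2 was called in 5 of 18 alternative fits, with adjusted p of 0.027 in DESeq2, 0.0077 without labelled TFAM-OE replicate 1, and 0.0053 with every gene of at least 1 read kept, a fit that called 8.44% of 29845 genes. Over all 18 the adjusted p ran from 0.0053 to 0.243.

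SMARCC2 shares 1138 nt of its span with MYL6, a myosin light chain gene on the opposite strand that is far more abundant, and the use of strand in counting is not given in the sources used here. MYL6 was examined after its values were seen. It had a scaled CPM of 731, 807 and 868 in the control and 1079, 955 and 807 in the labelled TFAM-OE libraries (log2 fold change 0.24, adjusted p = 0.262). In the control both genes rose from replicate 1 to replicate 3, with a scaled CPM of 44.8, 48.9 and 53.7 for SMARCC2. Within the labelled TFAM-OE libraries MYL6 was lowest in replicate 3, where SMARCC2 was highest. Whether reads of MYL6 entered the count of SMARCC2 was not tested.

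SMARCC1 (ENSG00000173473.10, chr3:47585269-47782106, - strand) had 5.69, 5.78 and 5.72 FPKM in the control and 3.66, 6.16 and 8.84 FPKM in the labelled TFAM-OE libraries. The control libraries lay close together, whereas those labelled TFAM-OE fell on both sides of them. SMARCC1 had a log2 fold change of 0.12 (SE 0.22, 95% interval -0.37 to 0.62, adjusted p = 0.772), and without labelled TFAM-OE replicate 3 it was -0.16. The share of SMARCC2 in the summed FPKM of SMARCC1 and SMARCC2 was 60.3%, 61.2% and 63.2% in the control and 73.1%, 66.5% and 63.7% in the labelled TFAM-OE libraries. These shares did not overlap, but labelled TFAM-OE replicate 3 was only just above control replicate 3. The difference was 6.20 percentage points (p = 0.1, two-sided exact permutation test, adjusted p = 0.167), and 3.55 percentage points without labelled TFAM-OE replicate 1.

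SMARCB1 (ENSG00000099956.17, chr22:23786931-23838009, + strand), the core subunit whose loss drives rhabdoid tumours, had 32.72, 33.28 and 33.37 FPKM in the control and 38.96, 37.21 and 35.05 FPKM in the labelled TFAM-OE libraries. The groups were apart in FPKM but overlapped in scaled CPM, where labelled TFAM-OE replicate 3 (69.2) was below control replicate 3 (70.2). The log2 fold change was 0.19 (SE 0.10, 95% interval -0.042 to 0.42, adjusted p = 0.285), and 0.12 without labelled TFAM-OE replicate 1.

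SMARCE1 (ENSG00000073584.18, chr17:40624962-40648654, - strand), a core subunit with a DNA-binding HMG domain, had 12.21, 10.47 and 10.66 FPKM in the control and 9.75, 10.6 and 11.66 FPKM in the labelled TFAM-OE libraries. The groups overlapped. Its log2 fold change of -0.037 (SE 0.092, adjusted p = 0.838) was the nearest to 0 of all members, and its sign turned to 0.10 with offsets for GC content and transcript length.

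The SMARCD subunits (BAF60A, BAF60B and BAF60C) are alternative adaptors between the complex and transcription factors. SMARCD1 (ENSG00000066117.14, chr12:50085200-50100707, + strand) had 16.94, 18.16 and 18.32 FPKM in the control and 17.63, 17.33 and 19.41 FPKM in the labelled TFAM-OE libraries. SMARCD2 (ENSG00000108604.15, chr17:63832081-63843065, - strand) had 27.09, 28.62 and 31.98 FPKM against 33.13, 31.58 and 29.52 FPKM. Both overlapped between the groups, with log2 fold changes of 0.046 (SE 0.094, adjusted p = 0.801) for SMARCD1 and 0.13 (SE 0.12, adjusted p = 0.530) for SMARCD2. The value of SMARCD2 was 0.055 without labelled TFAM-OE replicate 1, 0.063 without control replicate 1, and 0.22 without control replicate 3 or without labelled TFAM-OE replicate 3.

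SMARCD3 (ENSG00000082014.16, chr7:151238764-151277896, - strand), the SMARCD paralog known from heart and muscle, was the least abundant of these adaptors. It had 7.44, 7.59 and 7.14 FPKM in the control and 6.75, 6.84 and 5.13 FPKM in the labelled TFAM-OE libraries. The groups did not overlap in FPKM, and in scaled CPM the lowest control library (21.5) and the highest labelled TFAM-OE library (21.4) nearly met. The log2 fold change was -0.21 (SE 0.15, 95% interval -0.55 to 0.12, adjusted p = 0.408), and it was -0.050 without labelled TFAM-OE replicate 3. SMARCD3 shares 2216 nt of its span with CHPF2, a gene for chondroitin polymerisation on the opposite strand, whose scaled CPM, examined after its values were seen, was 94.9, 95.4 and 94.2 against 96.2, 83.9 and 75.5 (log2 fold change -0.15, adjusted p = 0.392). Both genes were lowest in labelled TFAM-OE replicate 3.

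Among the SMARCD mRNAs the shares differed little. The share of SMARCD3 in the summed FPKM was 13.6% ± 1.06 in the control and 11.2% ± 1.48 in the labelled TFAM-OE libraries (SD, n = 3 each), with no overlap and p = 0.1 by the exact permutation test (adjusted p = 0.167). The difference was -2.45 percentage points, and -1.61 percentage points without labelled TFAM-OE replicate 3. For SMARCD2 the difference was 2.64 percentage points (p = 0.2, adjusted p = 0.25) and for SMARCD1 it was -0.187 percentage points (p = 1, adjusted p = 1, two-sided exact permutation tests).

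ARID1A (ENSG00000117713.17, chr1:26693236-26782104, + strand), the DNA-binding subunit of canonical BAF and a frequent target of mutation in cancer, had 4.94, 4.67 and 4.55 FPKM in the control and 3.84, 4.74 and 6.38 FPKM in the labelled TFAM-OE libraries. The groups overlapped, again with the labelled TFAM-OE libraries on both sides of the control. ARID1A had a log2 fold change of 0.09 (SE 0.14, 95% interval -0.22 to 0.40, adjusted p = 0.729), and without labelled TFAM-OE replicate 3 it was -0.07.

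The members differed in how far the libraries of a group were spread. Between the labelled TFAM-OE libraries the highest scaled CPM was 2.18 times the lowest for SMARCC1 and 1.99 times for SMARCA2, ratios above those of 96.9% and 94.8% of the genes with a mean of at least 50 reads, whose median was 1.26. It was 1.50 times for ARID1A (above 80.6% of these genes), 1.08 times for SMARCE1 and 1.06 times for SMARCD1. The remaining members lay between ARID1A and SMARCE1. In the control the ratio was 1.06 for SMARCC1 and 1.03 for ARID1A, so SMARCC1 and ARID1A varied in the labelled TFAM-OE libraries and hardly in the control.

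This spread went with both transcript length and GC content over all genes, which were sorted by each into 5 classes of about equal size. From labelled TFAM-OE replicate 1 to labelled TFAM-OE replicate 3, the median log2 ratio went from -0.31 in the class with the shortest transcripts to 0.49 in that with the longest, over 13105 genes. By GC content it went from 0.26 in the lowest class to -0.26 in the highest. The longest members had the most positive ratios, 1.11 for SMARCC1, 0.96 for SMARCA2 and 0.58 for ARID1A, and the shortest had negative ones, -0.53 for SMARCD3 and -0.31 for SMARCD2. SMARCB1, with a ratio of -0.30, stood apart from the order by annotated length (5191 nt). The 1673 nt behind its FPKM would place it in the class of 1622 to 2580 nt, whose median ratio was -0.20. SMARCB1 lies in the highest class of GC content (59.6% GC), as does SMARCA4 (60.6% GC), whose ratio was 0.32. The part of length and of GC content in these values was not tested.

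**Figure D3:**
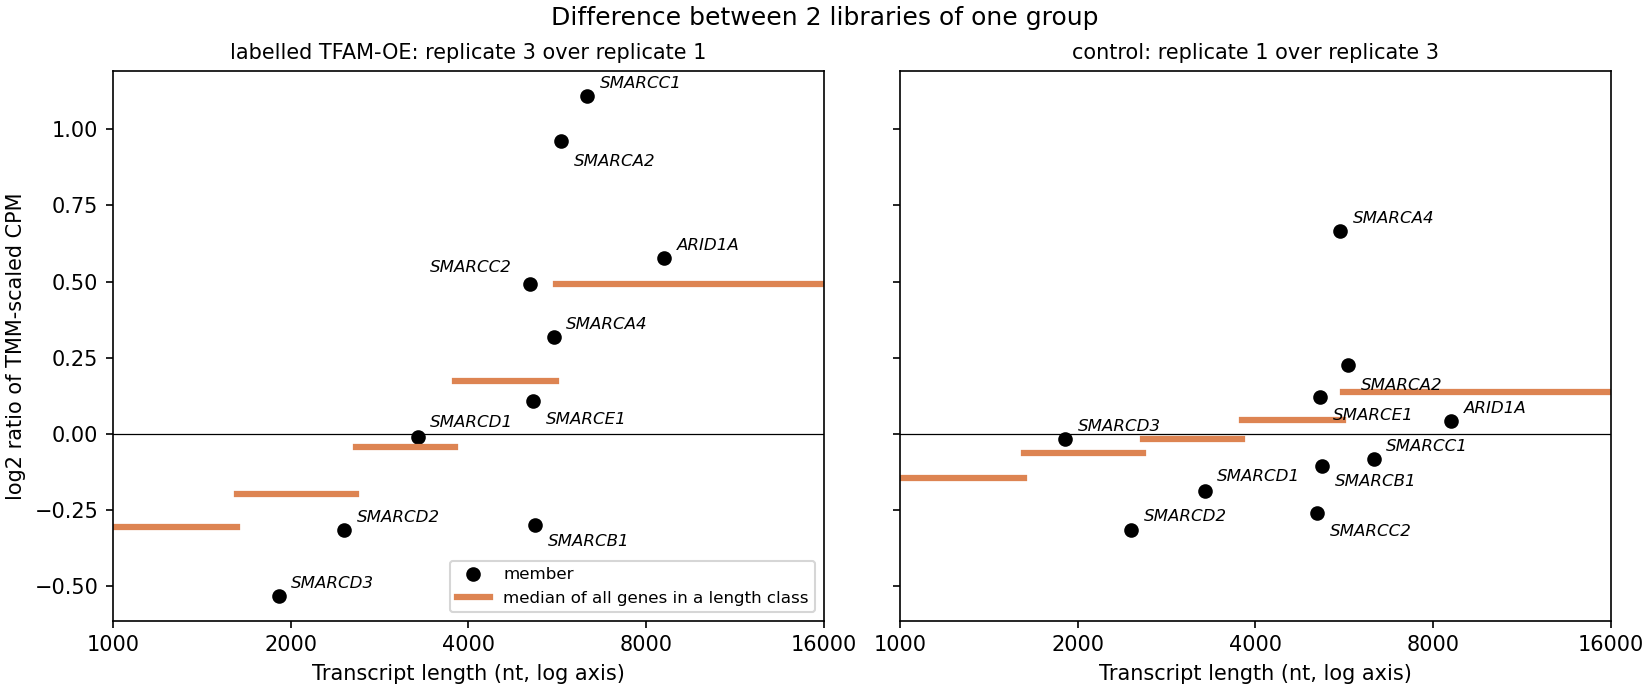
Log2 ratio of the scaled CPM of a pair of libraries of the same group (vertical axis) against annotated transcript length (horizontal axis, nt, log scale), labelled TFAM-OE replicate 3 over 1 on the left and control replicate 1 over 3 on the right, with members as points and the median of all genes in each of the 5 length classes as an orange line. On the left the medians climb from -0.31 to 0.49 and the long SMARCC1 and SMARCA2 lie above the short SMARCD3, while on the right SMARCA4, at 0.67, lies furthest from the medians.

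Between control replicates 1 and 3 the length medians spanned only -0.15 to 0.14, and SMARCA4 had the largest log2 ratio of the members, 0.67. For the comparison of the groups, the median log2 difference was 0.11 in the class of genes with the highest GC content, which holds SMARCA4 (60.6% GC), and -0.042 in its class of transcript length. With offsets for GC content and transcript length fitted per library in edgeR, the log2 fold change of SMARCA4 was -1.17 (adjusted p = 0.0019). That of SMARCC2 was 0.49 (adjusted p = 0.010) and that of SMARCD3 was -0.30 (adjusted p = 0.058), while SMARCE1 changed sign to 0.10. This fit called more of all genes, 1581 higher and 1423 lower, against 576 and 796 without offsets. The part of GC content and length in the difference between the groups was not tested.

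The remaining subunits of the complex were described from a list of 21 genes, of which 19 passed the filter on low counts and the neuronal or lymphoid subunits ACTL6B and BCL11A did not. Of the 19, 1 was called higher and 1 lower, against 3.48% and 4.81% of all tested genes, and 16 lay within 0.5 of 0 on the log2 scale. Their median log2 fold change was -0.031. DPF2, a PHD-finger subunit that reads histone acetylation, had 27.55, 27.99 and 24.8 FPKM in the control and 20.71, 18.13 and 19.89 FPKM in the labelled TFAM-OE libraries. DPF2 fell, and was lower in every library labelled TFAM-OE (log2 fold change -0.43, SE 0.10, adjusted p = 0.034). BCL7C, a small subunit of the BCL7 family, had 9.16, 11.41 and 12.37 FPKM against 16.24, 17.17 and 14.65 FPKM, and it was higher in every library labelled TFAM-OE (log2 fold change 0.57, SE 0.15, adjusted p = 0.043). Neither call was firm: of 18 alternative fits, 13 called DPF2 and 14 called BCL7C, against 15 for SMARCA4. DPF2 was not called when control replicate 1, 2 or 3 or labelled TFAM-OE replicate 2 was left out, with adjusted p between 0.0559 and 0.192. BCL7C was not called when control replicate 1 or 2 or labelled TFAM-OE replicate 2 was left out, with adjusted p between 0.130 and 0.177. Without these 3 libraries in turn, calls over all genes also fell. They went from 576 to 90, 66 and 89 higher and from 796 to 252, 240 and 262 lower.

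The subunits that set the form of the complex did not pass the test. ARID1B, the paralog of ARID1A in canonical BAF, had 2.46, 2.4 and 2.42 FPKM in the control and 1.73, 2.63 and 3.25 FPKM in the labelled TFAM-OE libraries (log2 fold change 0.07, adjusted p = 0.827), and like ARID1A its labelled TFAM-OE libraries lay on both sides of the control. The PBAF subunits ARID2 (1.27, 1.38 and 1.04 FPKM against 0.73, 1.03 and 1.52) and PBRM1 (2.01, 1.92 and 1.67 FPKM against 1.07, 1.63 and 2.66) overlapped between the groups, with log2 fold changes of -0.16 and -0.058. BRD9 of the non-canonical form had 8.76, 9.3 and 9.89 FPKM against 10.61, 10.69 and 11.11 FPKM, without overlap, and a log2 fold change of 0.23 (SE 0.11, adjusted p = 0.210).

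**Figure D4:**
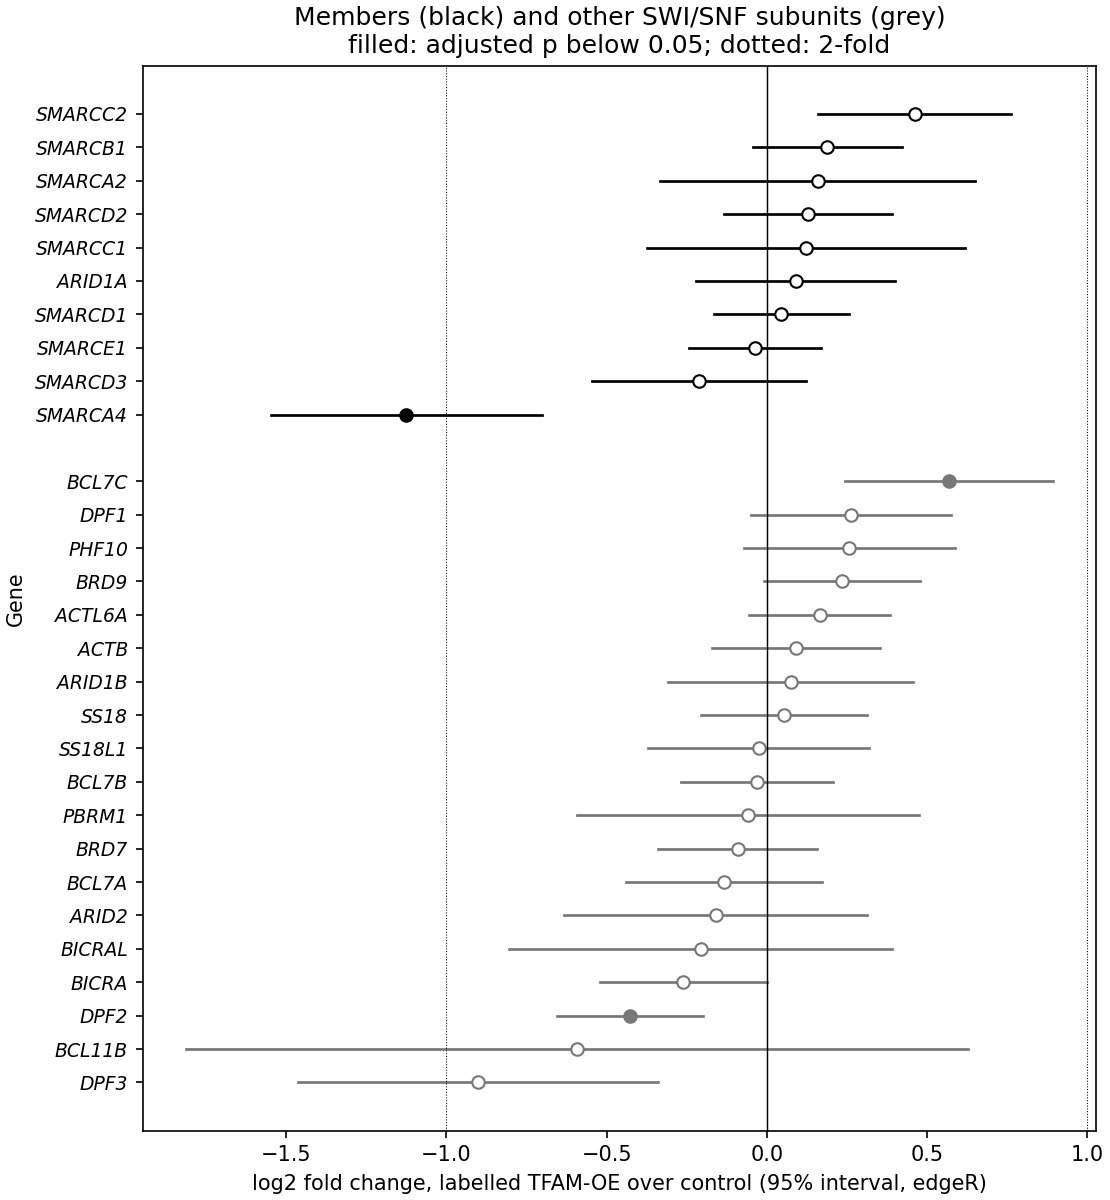
Log2 fold change of the 10 members (black) and the 19 other tested SWI/SNF subunits (grey), labelled TFAM-OE over control, with 95% intervals from edgeR (horizontal axis), filled points for an adjusted p below 0.05 and dotted lines at 2-fold. SMARCA4 at -1.12 is the filled member, BCL7C (0.57) and DPF2 (-0.43) are the filled points among the others, and most points lie within 0.5 of 0.

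The genes with the pattern most like that of SMARCA4 were sought among 13190 genes with a mean of at least 50 reads. The measure was the Euclidean distance of their centred log2 scaled CPM over the 6 libraries. A small constant was added to the scaled CPM before the log2, which shrinks the differences of genes with a low CPM. Mean scaled CPM in the control and labelled TFAM-OE was 3.80 and 1.59 for ZBED9 and 4.93 and 1.93 for SLC16A6. How far their places depend on the constant was not tested. The nearest was ZBED9, at a distance of 0.0964, followed by SLC16A6, a monocarboxylate transporter family gene, at 0.150 and FYB, which encodes an adaptor protein of T cells and platelets, at 0.160. FYB had 7.11, 5.66 and 4.22 FPKM in the control and 2.15, 2.62 and 3.17 FPKM in the labelled TFAM-OE libraries. SLC16A6 had 1.32, 1.08 and 0.8 FPKM against 0.33, 0.43 and 0.48 FPKM, and ZBED9 had 0.85, 0.67 and 0.49 FPKM against 0.21, 0.31 and 0.31 FPKM. As with SMARCA4, control replicate 1 was the highest library and control replicate 3 the lowest of the control for all 3 genes. Their log2 fold changes were -1.25, -1.35 and -1.08 for ZBED9, SLC16A6 and FYB, and since they were picked for likeness to SMARCA4 no test is read from them.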

How the data were processed

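Read counts and FPKM of 6 polyA RNA libraries of A549 cells (3 control, 3 TFAM-OE, grouped by title) were used. According to the study's methods, reads were trimmed with the FASTX-Toolkit (0.0.13), reads under 16 nt were dropped, and the rest were aligned to GRCh38 with TopHat2 allowing 4 mismatches. The library kit is stranded. The sources used here give no counting program, annotation or strand setting. For each gene and library the authors deposited the raw read count and an FPKM value with 2 decimals, and the deposited tables held 0 unused value columns. The libraries held 26650854 to 37321956 reads in genes, and the counting precision of a gene follows from its own reads.

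Genes were filtered with filterByExpr, since a fit over all genes pools the spread with that of very low genes, leaving 16555. Counts were scaled by TMM and tested, two-sided, with edgeR (4.0.16, quasi-likelihood) in R (4.3.3), with Benjamini-Hochberg adjustment over all genes tested and calls at adjusted p below 0.05. Paralog shares were tested by exact permutation. Coordinates, lengths and GC content came from GENCODE 44 on GRCh38, matched by gene ID (97.2% of 29845 genes). The edgeR, DESeq2 and limma-voom tests were checked on simulated counts that held no trend with transcript length or GC content. The permutation test was not checked in this way. The members and gene lists were chosen with earlier results of these data known.

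Named genes were all members, TFAM, ARID1B, ARID2, PBRM1 and BRD9, up to 5 further SWI/SNF subunits and up to 3 of each other family that were called with the smallest p, and the 3 genes nearest to SMARCA4. MYL6, CHPF2 and genes named as not called in the closing section were added after their values were seen. Alternatives covered the filter, scaling, DESeq2 (1.42.0), limma (3.58.1) with voom or on log2(FPKM + 0.1) and log2(FPKM + 1), GC content and length offsets, a 2-fold limit, the replicate number as a block, and each library left out.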

Additional observations from a re-analysis of the deposited data

How the results depend on the processing

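SMARCA4 remained lower under all 18 alternative fits (log2 fold change -1.30 to -0.65) and was called in 15. It was not called with the replicate number as a block (-1.11, adjusted p = 0.0556) or without control replicate 1 (-0.97) or 2 (-1.08). SMARCC2 was called in 5: every gene with at least 1 read (0.47), DESeq2 (0.47), GC content and length offsets (0.49), these with the block (0.48), and without TFAM-OE replicate 1 (0.58). Leaving out each library gave log2 fold changes of -1.30 to -0.97 for SMARCA4, 0.34 to 0.58 for SMARCC2, 0.12 to 0.27 for SMARCB1, 0.055 to 0.22 for SMARCD2, -0.30 to -0.050 for SMARCD3, -0.14 to 0.36 for SMARCA2, -0.16 to 0.37 for SMARCC1, -0.070 to 0.22 for ARID1A, -0.067 to 0.019 for SMARCE1 and -0.0031 to 0.086 for SMARCD1. The last 5 thus changed sign, and none of them was called under any setting. SMARCE1 was also above 0 with the GC content and length offsets, 0.10, and with these plus the block, 0.097.

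The members called numbered 0 higher and 1 lower. They were 1 higher with every gene with at least 1 read, DESeq2 and the offsets with or without the block, 0 lower with the block, and 0 to 1 in each direction with a library left out. Over all genes, 576 were called higher and 796 lower. These became 1034 and 1485 with every gene with at least 1 read, 932 higher with DESeq2, 74 and 285 with the block, 1581 and 1423 with the offsets, 74 and 342 with the 2-fold limit, and 66 to 1428 and 240 to 1786 with a library left out. Fewer were called without control replicate 1 or 2 or TFAM-OE replicate 2, and more without TFAM-OE replicate 3. Of the other SWI/SNF subunits, 1 higher and 1 lower became 0 and 0 with the block or the 2-fold limit, 2 lower with every gene or the offsets, and 0 to 1 and 0 to 2 with a library left out. For the other remodeller families and PRC2, 1 higher and 2 lower became 3 and 6 with every gene, 2 and 5 with DESeq2, 0 and 0 with the block, 8 and 6 with the offsets, 4 lower with offsets and block, 0 and 1 with the 2-fold limit, 1 lower with library size alone, and 0 to 7 and 0 to 10 with a library left out. There were 2 higher with a minimum of 10 reads, RLE, upper quartile or library size scaling, limma-voom, and limma-trend on log2(FPKM + 0.1) or log2(FPKM + 1). The causes were not tested. The differences in paralog shares moved by less than the pooled SD of both groups under every setting tried, but not always by less than the smaller control SD. With a library left out the difference was 16.9 to 22.9 percentage points for SMARCA2, 3.55 to 8.22 for SMARCC2, -1.87 to 0.759 for SMARCD1, 1.98 to 3.65 for SMARCD2 and -3.04 to -1.61 for SMARCD3.

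The replicate numbers were not taken as pairs: deviations of same-numbered libraries from their group means correlated at -0.36 to 0.036, and not every library correlated best with its own number. The lowest count of a member was 199 reads, for SMARCA4, and the 3 libraries per group limit every interval. Scaling moved the median of all genes by under 0.1.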

Other observations

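The other ATP-dependent remodellers and the Polycomb complex PRC2, which methylates histone H3 and is opposed by SWI/SNF, were described from lists of 58 genes, 57 of them tested. Of these, 1 was called higher and 2 lower, against 3.48% and 4.81% of all tested genes, and 52 lay within 0.5 of 0 on the log2 scale. INO80, the ATPase of the INO80 remodeller, had 6.96, 5.46 and 4.23 FPKM in the control and 1.66, 2.39 and 3.25 FPKM in the labelled TFAM-OE libraries. It fell 2.26-fold (log2 fold change -1.17, SE 0.21, adjusted p = 0.012), and the ATPases of the related remodellers, SRCAP (log2 fold change -0.059) and EP400 (0.26), were not called.

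Of 10 tested ISWI genes, RSF1, the partner of SMARCA5 in the RSF complex, fell from 1.98, 1.7 and 1.36 FPKM to 0.55, 1.02 and 1.15 FPKM (log2 fold change -0.88, adjusted p = 0.043), and the ATPases SMARCA5 (-0.46, adjusted p = 0.179) and SMARCA1 (0.038) were not called. Of 20 CHD and NuRD genes, the histone chaperone RBBP7 rose from 50.08, 48.65 and 52.54 FPKM to 59.39, 62.61 and 67.4 FPKM (log2 fold change 0.34, adjusted p = 0.043), and CHD4 had a log2 fold change of 0.24 (adjusted p = 0.487). The PRC2 list of 9 genes left out RBBP4 and RBBP7, which were listed with NuRD. None of these 9 was called by edgeR, 2 had an unadjusted p below 0.05, and DESeq2 called these 2 and limma-voom 1 of them. They were PHF19 (0.47, adjusted p = 0.0501) and EZH1 (-0.48, adjusted p = 0.076), while EZH2, the main methyltransferase, had a log2 fold change of 0.11 (adjusted p = 0.595). Over all tested genes DESeq2 called 932 higher and 1105 lower, and limma-voom 565 and 775. The share of all tested genes with an unadjusted p below 0.05 is not given here, so that count for PRC2 has no background. Without control replicate 1, control replicate 2 or TFAM-OE replicate 2, edgeR called 0 of these 57 genes in either direction. Over all genes these fits called 90, 66 and 89 higher and 252, 240 and 262 lower, against 576 and 796 with every library.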
